A study of Mus musculus with 2 samples.

Results

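The 6 genes described here across thymocytes sorted as invariant natural killer T (iNKT) cells were Izumo1r, Icos, Ramp1, Ckb, Ephx1 and Vamp5, 6 of the 32285 genes of the count table. They were selected on values of these same data, as genes enriched in a cluster of stage 3 cells that was led by Izumo1r and that carried genes of iNKT1a cells, the most immature iNKT1 cells. Their levels, their co-detection and their relation to Ccl5 within those cells are therefore descriptions and are given without a test.

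The study pooled 4 thymi of Ctrl mice and 4 thymi of T-KO mice, and did so 2 times in parallel. In T-KO mice the floxed gene Kidins220 is deleted by Cre under the proximal Lck promoter, which is active from an early thymocyte stage on but, as the study states, barely in γδ T cells; the labels give the C57BL/6 background. Stage 0 cells were sorted as TCRβ+ CD1d tetramer+ CD24+ NK1.1- and stage 3 cells as TCRβ+ CD1d tetramer+ NK1.1+ CD24- CD44+. Each of the 8 populations received its own hashtag antibody before all were pooled in 1 droplet library. The age of the mice of this sort is not stated, and the methods state that B cells, myeloid cells, double-positive (DP) and double-negative thymocytes were also present, some of them possibly through a poor tetramer stain.

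Counts are unique molecular identifiers (UMIs). A cell was used when it had at least 1000 genes, at most 5% mitochondrial UMIs, and 1 hashtag row with at least 80% of at least 10 UMIs among rows 11 to 18, which left 10007 of 16179 barcodes. The labels pair hashtags 1 to 8 with populations, while the hashtag UMIs lie on rows 11 to 18, so no row is assigned to a stage or a genotype and Ctrl and T-KO were not compared. The even rows 12, 14, 16 and 18 held 1752, 2162, 577 and 1267 cells, and the odd rows 11, 13, 15 and 17 held 1176, 1601, 889 and 583. Cells of the even rows had a median of 3258 to 3804 UMIs and those of the odd rows 6500 to 8068. Summed gene UMIs ranged from 2283162 to 14601545 per row. All levels are counts of a gene scaled to the gene UMIs of the row or group (CPM, per 1000000), from sums over its cells. Intervals are exact 95% Poisson intervals for levels and Clopper-Pearson intervals for shares; they cover counting error only.

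The rows differed in their cells. All 8 iNKT1 markers (Klrb1c, Tbx21, Il2rb, Nkg7, Xcl1, Klrd1, Ifng and Cxcr3) reached 20 CPM in the even rows, with a summed level of 3942 to 4441 CPM per row. Klrb1c had 328.5 to 444.1 CPM in the even rows and 4.78 to 6.57 CPM in the odd rows. Cd24a went the other way, with 23.3 to 34.2 CPM in the even rows and 313 to 365 CPM in the odd rows. Of the 6 genes listed as markers of regulatory T cells, 1, Tnfrsf18, reached 20 CPM in the even rows, and Foxp3, the defining one, had 0 to 2.19 CPM.

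iNKT cells recognise lipids on CD1d and leave the thymus as subsets that make different cytokines. iNKT1 cells depend on the transcription factor T-bet, carry NK cell receptors and make interferon-γ, and while they mature in the thymus they lose PLZF, encoded by Zbtb16, and gain effector genes such as Ccl5 and the granzymes. The 6 genes belong to different systems. Izumo1r encodes folate receptor 4, also called Juno, a membrane protein anchored by a lipid that binds the sperm protein IZUMO1 on the egg and is also found on regulatory and anergic T cells. Icos encodes a costimulatory receptor of the CD28 family. Ramp1 encodes the partner that turns the calcitonin receptor-like receptor, Calcrl, into a receptor for the neuropeptide CGRP. Ckb encodes the brain-type creatine kinase, which buffers ATP. Ephx1 encodes microsomal epoxide hydrolase, a detoxifying enzyme, and Vamp5 a small membrane protein of the VAMP family of vesicle proteins.

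By GENCODE M21 (GRCm38, which is mm10), Icos lies at chr1:60977927-61000320 and Ramp1 at chr1:91179822-91225196, both on the plus strand. On the minus strand lie Izumo1r at chr9:14885814-14903949, Ckb at chr12:111669361-111672338, Ephx1 at chr1:180976210-181020904 and Vamp5 at chr6:72368794-72380468. The promoter table of RefSeq for GRCm38.p6 held 5 of the 6 genes, all but Icos. The sequences before the start site are shown for Izumo1r and Ephx1, the pair with the highest co-detection ratio, and for Ramp1 and Ckb, which were also high in cells of the odd rows. They run 5′ to 3′ on the strand of the gene and end at the base before the RefSeq start, except that of Izumo1r, which is given only where no transcript of the gene has an exon and so leaves out 184 of 250 bases. For Ephx1, the GENCODE gene begins further upstream than the RefSeq start used here. Capitals mark matches to CACACCT, the core of a motif bound by the factors T-bet and Eomes (T-box), and to the run TATAAA.
Izumo1r, chr9:14903952-14904017, minus strand: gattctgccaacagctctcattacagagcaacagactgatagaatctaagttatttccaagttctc
Ephx1, chr1:181017570-181017819, minus strand: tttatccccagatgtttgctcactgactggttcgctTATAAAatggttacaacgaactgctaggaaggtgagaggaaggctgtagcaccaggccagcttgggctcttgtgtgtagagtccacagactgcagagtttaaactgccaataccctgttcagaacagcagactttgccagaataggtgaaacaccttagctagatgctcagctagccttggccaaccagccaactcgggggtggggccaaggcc
Ramp1, chr1:91179572-91179821, plus strand: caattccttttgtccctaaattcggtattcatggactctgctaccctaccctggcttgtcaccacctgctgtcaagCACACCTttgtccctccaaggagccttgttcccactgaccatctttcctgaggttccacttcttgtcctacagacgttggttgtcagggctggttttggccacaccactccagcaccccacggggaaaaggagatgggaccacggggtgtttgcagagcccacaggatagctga
Ckb, chr12:111672339-111672588, minus strand: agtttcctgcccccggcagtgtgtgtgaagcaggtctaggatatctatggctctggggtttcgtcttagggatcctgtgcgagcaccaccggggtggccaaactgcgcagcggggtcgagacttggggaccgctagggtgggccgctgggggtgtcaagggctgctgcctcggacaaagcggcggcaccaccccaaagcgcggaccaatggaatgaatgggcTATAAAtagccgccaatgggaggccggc

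Over the 250 bases before the start, CACACCT or its complement AGGTGTG had 1 match in Izumo1r, 59 bases before the start, in the stretch not printed, and 1 in Ramp1, 174 bases before it. Ckb, Ephx1 and Vamp5 had 0. Of the 32851 mouse promoters of the table, 5.11% held this motif. TATAAA or TTTATA had 1 match in Ckb, 28 bases before the start, and 1 in Ephx1, 214 bases before it, against 12.4% of all promoters. TGTGGT, a Runx core, had 1 match, in Izumo1r, against 14.1% of all promoters, and CTTTGA, a TCF core, had 0 in the 5 genes, against 13.8%. CANNTG, the E-box, was in 4 of the 5 genes, all but Ckb, against 66.2% of all promoters, and the match of Izumo1r overlapped its T-box match. The letters searched were chosen after the sequences had been seen, and a match is a description of the sequence only.

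Izumo1r and Icos were higher in every even row than in every odd row, Ckb was lower, Ephx1 and Vamp5 were higher by smaller folds, and Ramp1 overlapped between the even and the odd rows. Of the 6 genes, 2 (Izumo1r and Icos) belonged to the 6.91% of the 6745 genes tested whose 4 even rows lay above all 4 odd rows with medians at least 2-fold apart (pseudocount 10 CPM, at least 20 CPM). Ckb belonged to the 9.36% that met the same criterion the other way. Ephx1, Vamp5 and Ramp1 met neither. The share of all genes whose even and odd rows lay apart by any fold was not computed, so that trait of Ephx1 and Vamp5 has no background. Over all genes tested, the median log2 ratio of even to odd rows was -0.09.

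Izumo1r had 109.7, 135, 201 and 261 CPM in rows 12, 14, 16 and 18. In rows 11, 13, 15 and 17 it had 25.6, 17.7, 14 and 22.0 CPM. All 4 even rows lay apart from each other beyond counting error, from row 12 at the bottom to row 18 at the top. Neighbours in the order of the odd rows overlapped, but row 11 lay apart from rows 13 and 15, and row 17 from row 15. The median of the even rows, 168 CPM, was 8.46-fold that of the odd rows, 19.9 CPM. After each cell was thinned to 2000 UMIs, 17.05 to 29.9% of the cells of an even row had an Izumo1r UMI, against 3.05 to 6.49% of those of an odd row; unthinned shares were 24.5 to 40.2% and 6.86 to 11.2%.

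Icos had 91.3, 95.4, 148 and 136 CPM in rows 12, 14, 16 and 18. It had 11.1, 5.75, 7.86 and 17.6 CPM in rows 11, 13, 15 and 17. The even rows formed an upper pair, rows 16 and 18, and a lower pair, rows 12 and 14, whose members did not differ beyond counting error. The medians, 116 and 9.47 CPM, were 12.2-fold apart. With cells thinned to 2000 UMIs and shallower ones left out, the log2 ratio of even to odd rows was 2.68 in place of 3.61.

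Ramp1 had 131, 169, 166 and 224 CPM in rows 12, 14, 16 and 18. In rows 11, 13, 15 and 17 its level was 210, 223, 221 and 264 CPM. Row 18 lay among the odd rows, and the median of the odd rows was 1.33-fold that of the even rows. Thinned shares of cells with a UMI were 22.3 to 33.8% in the even and 30.7 to 31.5% in the odd rows.

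Ckb had 32.0, 35.7, 74.9 and 67.4 CPM in rows 12, 14, 16 and 18, so rows 16 and 18 again lay above rows 12 and 14. In rows 11, 13, 15 and 17 it had 177, 105, 135 and 97.6 CPM. The odd rows were all above the even rows, with a median 2.33-fold as high.

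Ephx1 had 83.7, 98.1, 102 and 126 CPM in rows 12, 14, 16 and 18, and 34.5, 61.5, 48.9 and 79.3 CPM in rows 11, 13, 15 and 17. The intervals of row 12, the lowest even row, and row 17, the highest odd row, overlapped. The medians were 1.81-fold apart, a log2 ratio of 0.85. That ratio was 0.01 when each cell was thinned to the same 2000 UMIs, which gives deep cells no more weight than shallow ones.

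Vamp5 had 38.7, 40.8, 49.0 and 55.3 CPM in rows 12, 14, 16 and 18. It had 20.7, 22.8, 19.9 and 23.5 CPM in rows 11, 13, 15 and 17. Rows next to each other in level overlapped within the even and within the odd rows, though row 18 lay apart from rows 12 and 14. The 2 sets lay apart, with medians 2.06-fold apart.

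**Figure D1:**
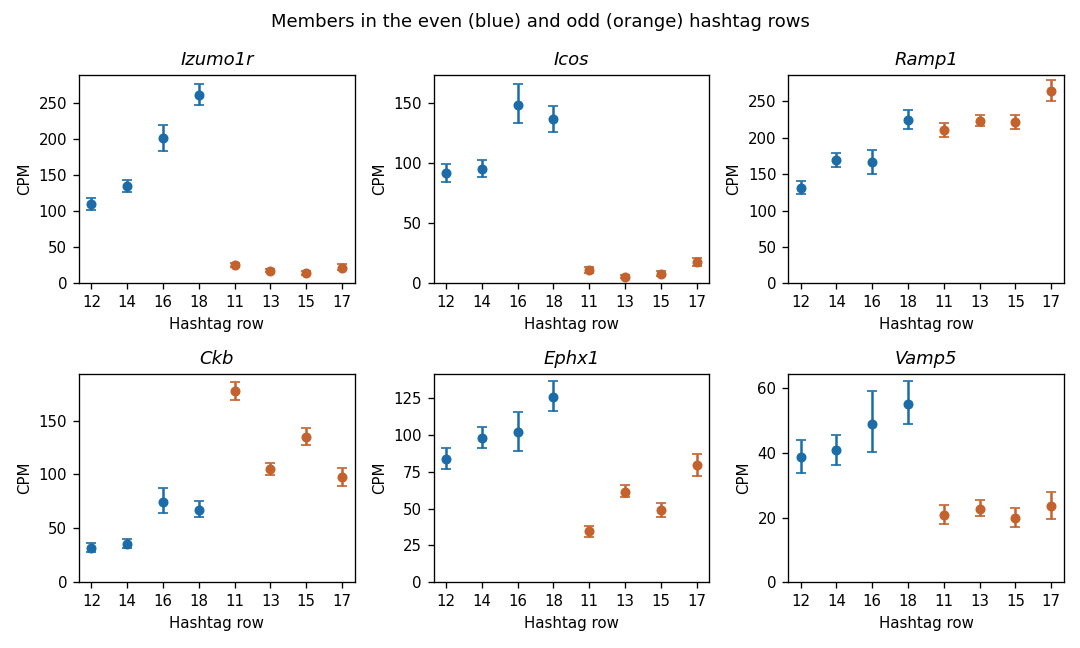
Level of each gene (y axis, CPM, from 0) in the 4 even hashtag rows (blue) and the 4 odd rows (orange), with exact 95% Poisson intervals. Izumo1r and Icos lie at 91.3 CPM or more in the even rows and at 25.6 CPM or less in the odd rows, Ckb is higher in the odd rows, and Ramp1 overlaps.

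The odd rows held several kinds of cells, and the 6 genes were spread unequally over them. Their 4249 cells were split by the first of these limits that a cell met: at least 2 Cd79a UMIs (810 cells), 5 Cst3 UMIs (972), 1 Rag1 UMI (418) or 2 Ikzf2 UMIs (1106), with 943 cells left as the rest. Each of these 4 genes is itself on a marker list, so the sums that follow leave it out. Pooled over rows, the other B cell markers summed to 1954 CPM in the Cd79a group and to at most 30.1 CPM in the other groups and the even rows. The other myeloid markers summed to 6999 CPM in the Cst3 group, mostly H2-Ab1 (6289 CPM), and to 2961 CPM in the Cd79a group, again mostly H2-Ab1. The other DP thymocyte markers summed to 1787 CPM in the Rag1 group, with Dntt as the largest part (779.3 CPM). Cd4, also on that list, had 18.99 CPM there, below the rest (44.61 CPM) and the even rows (26.59 CPM). It was lower still in the Cd79a, Cst3 and Ikzf2 groups. The other markers of stage 0 iNKT and agonist-selected thymocytes summed to 2457 CPM in the Ikzf2 group. The rest had 1419 CPM of the stage 0 and agonist-selected list, 1192 CPM of the DP list and 1373 CPM of the list of conventional single-positive cells, the last mostly Satb1 (762.5 CPM) and Lef1 (411 CPM), with Ccr7 at 25.8 and S1pr1 at 5.47 CPM. It is not named as a cell type. Of the odd-row cells, 556 met at least 2 of the limits and may be doublets, which were not called within a hashtag row. The Rag1 group of row 11 had a median of 3684.5 UMIs per cell, against 14409 to 15274 in rows 13, 15 and 17.

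Izumo1r, pooled over the odd rows, had 44.3 CPM (interval 40.0 to 49.0) in the Ikzf2 group and 34.7 CPM (30.4 to 39.4) in the rest. It had 4.52 CPM in the Cd79a group, 6.81 in the Cst3 group and 4.48 in the Rag1 group. By row, the Ikzf2 group had 79.7, 46.9, 30.2 and 31.8 CPM in rows 11, 13, 15 and 17, and the rest had 76.4, 20.0, 17.7 and 37.1 CPM. Row 11 was the highest in both groups. The order of the 2 groups was not settled, since the median log2 ratio of the Ikzf2 group to the rest was 0.42 and turned to -0.24 in thinned cells. Every even row lay above each of these values.

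Icos had 14 CPM in the Ikzf2 group and 19.9 CPM in the rest, pooled over the odd rows. The Cd79a and Cst3 groups had 4.68 and 5.36 CPM, and the Rag1 group 1.61 CPM. In the rest it ranged from 8.07 CPM in row 13 to 52.1 CPM in row 17. No Icos UMI was found in the Rag1 group of row 17, where the exact interval reaches 3.50 CPM and a limit of 3 counts corresponds to 2.84 CPM. The median log2 ratio of the Ikzf2 group to the rest was -0.32, and 0.14 when a cell needed 95% of at least 50 hashtag UMIs on its row.

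Ckb in the odd rows lay mostly in the Cst3 group, with 396 CPM (384 to 408), and 343 to 433 CPM by row. The other groups had 17.8 CPM (Cd79a), 2.69 (Rag1), 21.6 (Ikzf2) and 43.3 CPM (rest). The Cst3 group held 4359 Ckb UMIs, and 41.1% of its thinned cells had one. By row the rest had 59.2, 18.95, 51.7 and 75.1 CPM in rows 11, 13, 15 and 17, which spans the 32.0 to 74.9 CPM of the even rows, where the myeloid list summed to 410 CPM, most of it Cst3 itself. The median log2 ratio of the Cst3 group to the rest was 2.83, and 1.60 in thinned cells.

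Ramp1 was widespread. It had 374 CPM in the rest, 270 in the Rag1 group, 251 in the Ikzf2 group and 206 in the Cst3 group, and 24.3 CPM in the Cd79a group. The lowest value by row outside the Cd79a group was 192 CPM, above the level of 3 of the 4 even rows. In the Rag1 group 42.9% of the thinned cells had a Ramp1 UMI.

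Ephx1 had 178 CPM (169 to 187) in the Ikzf2 group, and 144.9, 200.1, 149.6 and 188.5 CPM there in rows 11, 13, 15 and 17. It had 24.0 CPM in the Cd79a group, 13.1 in the Cst3 group, 8.42 in the Rag1 group and 31.8 in the rest. The Ikzf2 group lay above every even row (83.7 to 126 CPM), and its median log2 ratio to the rest was 2.54. Of its thinned cells 36.1% had an Ephx1 UMI, against 14.3 to 20.2% of those of an even row.

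Vamp5 had 32.0 CPM in the Ikzf2 group and 33.5 CPM in the rest. It had 9.98 CPM in the Cd79a group, 18.4 in the Cst3 group and 11.3 in the Rag1 group. The Ikzf2 group and the rest did not differ in a settled direction, with a median log2 ratio of 0.05, which was -0.03 without row 15 and likewise without row 17. Each of the 4 even rows had a level above the highest value by row in the odd groups but 1, the 38.8 CPM of the rest in row 11, which lay just above row 12.

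Free RNA in droplets gives UMIs in cells that do not express a gene. Cells of the Cd79a group, with B cell markers and a median of 6002.5 UMIs before thinning, had an Izumo1r UMI in 1.01% of thinned cells, Icos in 1.14%, Ckb and Vamp5 in 2.40% each, Ramp1 in 4.41% and Ephx1 in 5.17%. In the Rag1 group, with a median of 13561.5 UMIs, the thinned shares were 1.54% for Izumo1r, 0.771% for Icos and 2.31% for Vamp5, near these levels. Ckb and Ephx1 had lower shares there, 1.03 and 1.29%, and the unthinned intervals for Ephx1, at most 7.58% in the Rag1 and at least 11.2% in the Cd79a group, lay apart. For each of the 6 genes, the thinned share of every even row was above that of the Cd79a group.

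**Figure D2:**
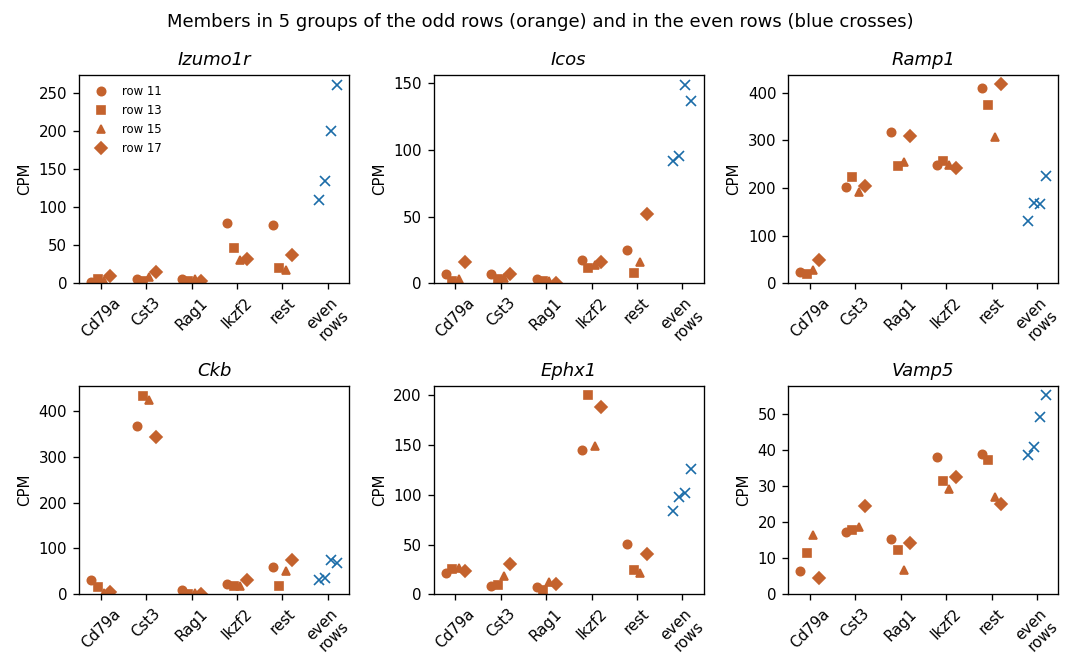
Level of each gene (y axis, CPM, from 0) in 5 groups of odd-row cells, split by UMIs of Cd79a, Cst3, Rag1 and Ikzf2, with 1 orange marker per odd row and the 4 even rows as blue crosses. Ckb stands out in the Cst3 group, Ephx1 in the Ikzf2 group, and Izumo1r and Icos are highest in the even rows.

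The genes also differed in how their UMIs were spread over cells. In the even rows 1715 cells had an Izumo1r UMI, and 49.2% of its UMIs came from the 362 cells with 3 or more, up to 19 in a cell. Icos was detected in 1609 even-row cells, but 21.3% of its UMIs came from cells with 3 or more. For Ramp1 that share was 32.0% (2205 cells with a UMI), for Ckb 33.3% (615 cells), for Ephx1 19.4% (1480 cells) and for Vamp5 8.22% (769 cells). In the odd rows, 969 cells had a Ckb UMI and 87.7% of the UMIs lay in cells with 3 or more, up to 31 in a cell. Izumo1r and Ckb were thus the genes of the 6 with the highest UMI number in a single even-row cell, 19 each, and Vamp5 the one with the lowest, 4.

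Co-detection asked whether the 6 genes were found in the same even-row cells more often than their separate shares give. Cells were thinned to 2000 UMIs, which kept 5206 of 5758, and the share of cells with both genes was divided by the product of the 2 shares within each row. All 15 pairs had a median ratio above 1, from 1.05 for Ramp1 with Vamp5 to 1.48 for Izumo1r with Ephx1, and the median over the pairs was 1.27. In 10 of the 15 pairs the ratio was above 1 in 4 of 4 rows, and in 14 of 15 without thinning. Pairs of other genes were not counted in this way, so these counts have no background. A share over all genes is given below only for pairs with Izumo1r in thinned cells. The 5 pairs that fell to 1 or below in some row were 4 of the 5 pairs with Vamp5 and the pair of Ckb with Ephx1.

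Izumo1r and Ephx1 were found together in 3.69, 4.83, 6.88 and 8.51% of the cells of rows 12, 14, 16 and 18. The products of the shares were 2.57, 3.16, 3.41 and 6.03%. The ratio was 1.44, 1.53, 2.02 and 1.41, highest in row 16, the row with the fewest cells, where 35 cells had both.

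Izumo1r and Icos were found together in 3.57, 3.46, 9.43 and 9.41% of the cells of rows 12, 14, 16 and 18, with ratios of 1.31, 1.14, 1.79 and 1.33. Ramp1 with Ckb had ratios of 1.57, 1.37, 1.61 and 1.33 in the same rows, and Icos with Ckb 1.29, 1.37, 1.91 and 1.53, on as few as 17 cells with both. Ramp1 with Vamp5 was below 1 in 2 of 4 rows.

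All 5 other genes had a ratio with Izumo1r above 1 in 4 of 4 rows, and so did 9.51% of the 6289 genes tested. Ephx1 alone was at or above 1.2 in 4 of 4 rows, as were 0.27% of the genes tested. Over all genes tested the median ratio with Izumo1r was 1.00. Since the genes were chosen as those enriched in 1 cluster of these cells, a joint excess follows from that choice, and its size is given as a description.

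**Figure D3:**
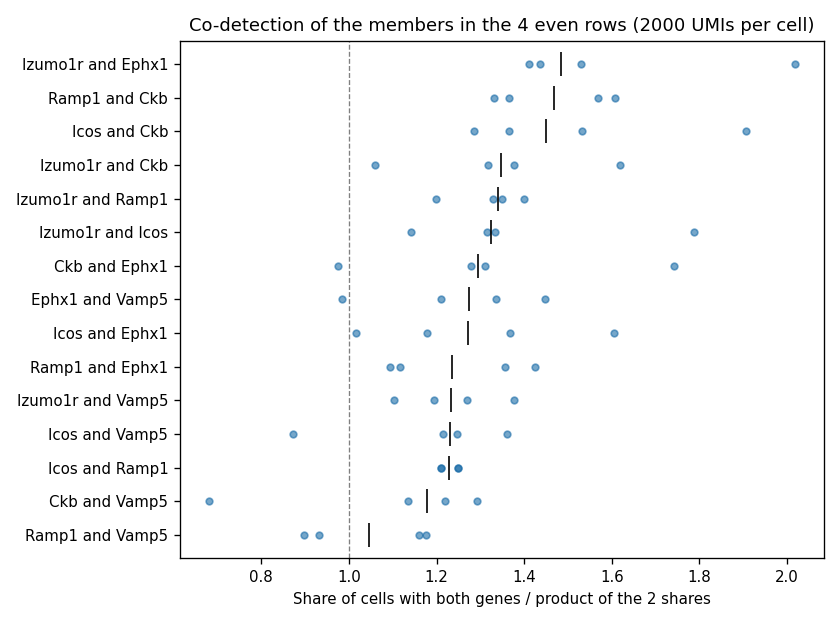
Co-detection of each of the 15 pairs in even-row cells thinned to 2000 UMIs (x axis, share of cells with both genes over the product of the 2 shares; 1 point per even row, black mark at the median). Izumo1r with Ephx1 is at the top, with 1.41 to 2.02, and Ramp1 with Vamp5 at the bottom, with 0.898 to 1.18.

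The number of the 6 genes detected per cell was more spread than the shares give. Cells with 3 or more genes made up 5.23, 6.46, 11.98 and 16.9% of the thinned cells of rows 12, 14, 16 and 18. Independent detection at the same shares gives 3.48, 4.47, 7.12 and 11.3%. Cells with none were also more frequent than that, at 43.9, 41.3, 38.1 and 29.4% against 40.6, 36.7, 30.1 and 22.5%. Of the 5206 thinned cells, 1, in row 18, had all 6.

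Ccl5, a chemokine of effector iNKT1 cells, fell with the number of genes detected. Its level was 1229, 758, 521 and 347 CPM in cells of row 12 with 0, 1, 2 and 3 or more of the 6 genes. In row 14 it was 1165, 792, 350 and 323 CPM, in row 16 it was 976, 426, 272 and 158 CPM, and in row 18 it was 943, 671, 311 and 184 CPM. The level was lower with each step in all 4 rows. The thinned share of cells with a Ccl5 UMI went from 36.6 to 44.8% in cells with none of the genes to 16.6 to 20.0% in cells with 3 or more, although in row 16 it was 10.98% at 2 genes. The median UMI number of these cells before thinning was 3387 to 3921.5 with none of the genes and 3352 to 4120 with 3 or more.

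**Figure D4:**
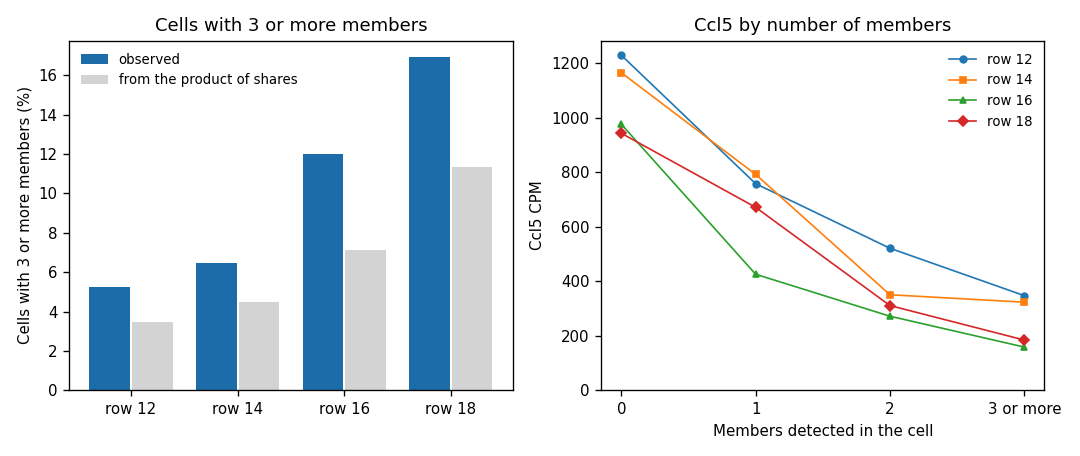
Left, share of thinned even-row cells with 3 or more of the 6 genes (y axis, %, from 0), observed (blue) and from the product of the shares (grey). Right, Ccl5 level (y axis, CPM, from 0) by number of genes detected, 1 line per even row; Ccl5 falls from 943 to 1229 CPM at 0 genes to 158 to 347 CPM at 3 or more.

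Seen from Ccl5, the 6 genes were higher in cells with 0 Ccl5 UMIs than in cells with 3 or more in each of the 4 even rows, by unequal folds. The classes of 0, 1 to 2, 3 to 5 and 6 or more Ccl5 UMIs held 3566, 951, 426 and 815 cells, and their median UMI numbers per row were 3139 to 3804 at 0 and 3481 to 3935 at 6 or more. Of the 6290 genes tested, 0.0318%, which are Izumo1r and Il4, were at least 1.5-fold higher at 0 than at 3 or more Ccl5 UMIs in 4 of 4 rows (pseudocount 10 CPM), so 1 of the 6 genes met this. The median log2 ratio of all genes was 0.06, and Vamp5 in row 14 had 0.05 with this pseudocount. The share of all genes higher at 0 in every even row by any fold was not computed. Lower at 0 Ccl5 were Gzma, Gramd3, Klrc1, S100a4, Kcnj8 and Glipr2.

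Izumo1r had the highest median fold of the 6 genes, though not in row 16, where only Ramp1 had a lower one. Its level was 140.3, 165.5, 224 and 298.5 CPM at 0 Ccl5 UMIs in rows 12, 14, 16 and 18, and 33.4, 52.2, 91.7 and 65.6 CPM at 6 or more. The fold of 0 over 3 or more was 3.50, 2.67, 1.82 and 3.12, with a median of 2.89. In row 18 the level at 1 to 2 Ccl5 UMIs, 303 CPM, was no lower than at 0.

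Ephx1 had the next highest median, with folds of 2.34, 2.45, 2.47 and 1.49 in rows 12, 14, 16 and 18 and a median of 2.39. It went from a median over rows of 118 CPM at 0 to 41.9 CPM at 6 or more Ccl5 UMIs. Ckb had folds of 2.28, 1.86, 3.82 and 1.30, with a median of 2.06, but in row 18 it was highest at 1 to 2 Ccl5 UMIs, with 113 CPM. Icos had folds of 1.71, 1.49, 2.63 and 1.81 (median 1.76), and Ramp1 1.70, 1.48, 1.69 and 1.37 (median 1.58). Vamp5 had the lowest median of the 6, 1.32, with folds of 1.17, 1.04, 1.92 and 1.48. It was nearly level in rows 12 and 14, while in row 18 its intervals at 0 (52.1 to 69.6 CPM) and at 6 or more Ccl5 UMIs (16.7 to 49.2 CPM) lay apart; in the other 3 rows they overlapped.

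Cells with 6 or more Ccl5 UMIs had a higher median UMI number than cells with 0 in all 4 rows. With cells thinned to 2000 UMIs and 0 compared with 1 or more Ccl5 UMIs, the median log2 ratio was 1.10 in place of 1.53 for Izumo1r and 0.78 in place of 1.26 for Ephx1. Among cells with 0 Ccl5 UMIs, an alternative added once the data were known, the 15 pairs had a median co-detection ratio of 1.19. Izumo1r with Icos had 1.22. Ratios of other gene pairs in these cells are not given.

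**Figure D5:**
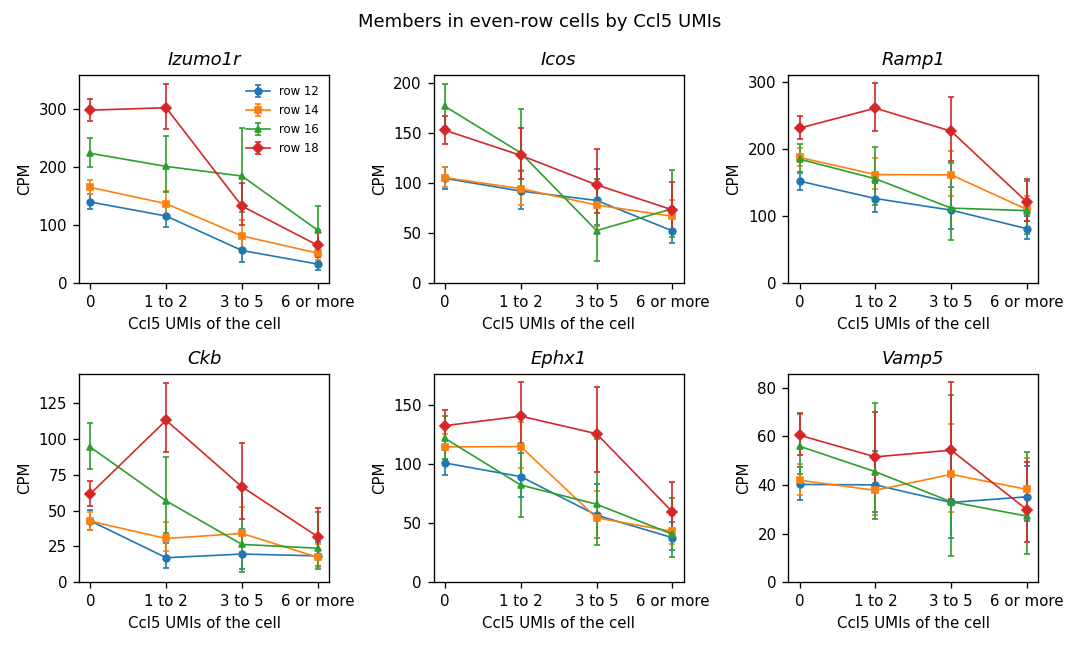
Level of each gene (y axis, CPM, from 0) in even-row cells by Ccl5 UMIs of the cell (x axis, 4 classes), 1 line per even row, with exact 95% Poisson intervals. Izumo1r falls from 140.3 to 298.5 CPM at 0 Ccl5 UMIs to 33.4 to 91.7 CPM at 6 or more, while the lines of Vamp5 are nearly flat in rows 12 and 14.

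Even-row cells with an Izumo1r UMI (1715 cells, median 3615 UMIs) were set against those without (4043 cells, median 3302 UMIs). Genes at least 1.5-fold higher in 4 of 4 rows were 0.0318% of the 6290 tested, namely Ephx1 and A430093F15Rik, and genes lower were 0.0636%, namely Gzma, Ccl5, Klrc1 and Lgals3. Thus 1 of the 5 other genes met this, and the median log2 ratio of all genes was -0.01. Ephx1 had 156 CPM with and 74.2 CPM without an Izumo1r UMI, with log2 ratios of 0.80, 0.80, 1.46 and 1.03 in rows 12, 14, 16 and 18. Icos had 153 and 89.2 CPM (median log2 ratio 0.61), Ramp1 237 and 139 CPM (0.64), Ckb 61.2 and 39.4 CPM (0.43) and Vamp5 55.8 and 39.1 CPM (0.43). All 5 were above 0 in each row, and 4 of them did not reach 1.5-fold in every row. Ckb had only 0.08 in row 12 and Vamp5 0.14 in row 14. The share of all genes above 0 in each row was not computed. Ccl5 had 294 CPM with and 974 CPM without an Izumo1r UMI, and Gzma, a granzyme, had 51.6 and 165 CPM. Without row 12 or without row 14, 4 genes were higher, and 7 and 12 were lower.

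Of the systems the 6 genes belong to, no other gene was called in cells with an Izumo1r UMI. Over all 6290 genes tested, 0.0318% were called higher and 0.0636% lower, so counts of 0 in short lists are near that share. Of the 14 genes listed for the CD28 family, its ligands and signalling, 8 reached 20 CPM and 0 were called in either direction (median log2 ratio -0.05); Cd28, the closest relative of Icos, had 261 CPM in cells with an Izumo1r UMI and a median log2 ratio of 0.17. Of 9 genes of the CGRP receptor and its ligands, 3 were tested, with 0 called and a median of 0.01. Calcrl, which Ramp1 needs for CGRP binding, had 10.2 CPM in the even rows, below the limit. Of 14 genes of folate uptake and one-carbon use, 4 were tested and 0 called (median -0.09), and the related receptors Folr1 and Folr2 had 0 and 0.0488 CPM. Ckb was the only 1 of 7 creatine genes, and Ephx1 the only 1 of 4 epoxide hydrolases, that reached 20 CPM. Of 14 VAMP and SNARE genes, 11 were tested and 0 called, with a median of 0.00; Vamp8, a relative that acts in secretion, had 168 CPM in the even rows and a median log2 ratio of 0.05.

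Of the 22 effector iNKT1 genes listed, all were tested, 0 were higher and 3 (Ccl5, Gzma and Klrc1) were lower in cells with an Izumo1r UMI, with a median log2 ratio of -0.27. Those not called ran from Klf2, which encodes a factor of T cell exit, at -0.80 to Klra1, an inhibitory NK cell receptor, at 0.32. The receptor gene Klrb1c, which encodes the NK1.1 protein used in the sort, had 0.22, and Tbx21, which encodes T-bet, had -0.02. Of the 16 early iNKT1 and iNKT2 genes, 10 were tested and 0 called, with a median of 0.18. Zbtb16 had 102 CPM in cells with an Izumo1r UMI and a median log2 ratio of 0.81, Cd4 0.62 and Il4, the cytokine of iNKT2 cells, 0.59, while Gata3 had 0.04 and Bcl11b -0.23. These lists were drawn up with earlier results of these data known, and their counts are descriptions.

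The genes most like the set were sought by comparing the 2410 even-row cells with at least 2 of the 6 genes (median 3642 UMIs) with the 1466 cells with none (median 3103.5 UMIs). Of 6285 other genes, 4 were at least 1.5-fold higher in 4 of 4 rows and 7 lower. The 4 were Nrgn (65.5 against 21.9 CPM, median log2 ratio 1.17), Il4 (39.5 against 18.03 CPM, 0.94), 6330403K07Rik (30.7 against 13.03 CPM, 0.82) and Zbtb16 (94.9 against 52.3 CPM, 0.73). The 5 with the lowest ratios were Gzma, Ccl5, Klrc1, Klf2 and Kcnj8, from -1.92 to -0.92. Ccl5 had 395 CPM in cells with at least 2 of the genes and 1324 CPM in cells with none.

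Pooled over rows, even-row cells with at least 2 Ikzf2 UMIs, 98 in all, had higher levels of 4 of the genes than the 5533 cells that met none of the 4 limits. The share of all genes higher in the 98 cells was not computed, so this count has no background. Izumo1r had 323 CPM (272 to 382) against 162 CPM, Icos 220 (178 to 270) against 108, Ramp1 277 (229 to 331) against 167, and Ephx1 155 (120 to 197) against 99.7 CPM. For Ckb and Vamp5 the intervals overlapped. Row 18 alone gave 74 of the 138 Izumo1r and 32 of the 66 Ephx1 UMIs. An alternative without row 18 was added once the data were known. Izumo1r then had 225 CPM (173 to 287) against 133, Icos 235.5 against 99.4 and Ramp1 271 against 150.0 CPM. Their intervals lay apart, while for Ephx1, with 119.5 CPM (82.8 to 167) against 92.6, they overlapped. All these intervals cover counting error only and not the spread between cells. In row 12 Ephx1 was lower in the cells with Ikzf2 UMIs, with 66.1 against 84.3 CPM on 7 UMIs. Ikzf2 encodes Helios, which is also found in regulatory T cells; in these 98 cells Foxp3 had 2 UMIs, Ctla4 2 and Il2ra 6, and the part of other cell types in the difference was not tested.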

How the data were processed

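The deposited values are raw UMI counts of genes and hashtags in each barcode called a cell. The authors made them with Cell Ranger 6.0.0 (mm10, its prebuilt mouse reference) from a 10X Genomics V(D)J library, which reads 5′ ends. Seurat is named in the submitters' processing notes. Here, sums, shares and ratios were computed in Python 3.11.15 with numpy 2.4.6, scipy 1.17.1 and pandas 2.3.3, and figures with matplotlib 3.10.9. The 8 populations form 1 library with no source that pairs hashtag rows 11 to 18 with them, so no test was run and no p-value is given; depth per row ranged from 2283162 to 14601545 gene UMIs. Barcodes without 1 hashtag row, through UMIs on several rows or fewer than 10 hashtag UMIs, were left out (2140, not split by reason). Doublets within a row were not called, and free RNA was not removed. Thinning drew 2000 UMIs per cell without replacement (seed 1) and left out 552 even-row and 216 odd-row cells. Log2 ratios across genes used a pseudocount of 10 CPM and genes with at least 20 CPM; a gene was called when at least 1.5-fold the same way in 4 of 4 even rows. The genes and lists were chosen with earlier results of these data known. The text names the 6 genes, Ccl5, the 4 genes of the split, genes of the lists and markers, the genes called, and the genes most like the set (up to 10 higher and 5 lower); called genes outside these were named after their values were seen. Alternatives were a stricter hashtag limit, looser and tighter cell filters, CPM without ribosomal and Gm genes, thinning, another pseudocount, no filter on low genes, iNKT1-marked cells only, and leaving out each row. The ratio steps were tested on simulated data.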

Additional observations from a re-analysis of the deposited data

Results flagged for a closer look

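Hashtag rows 1 to 10, 19 and 20, which no comparison uses, held 25599 UMIs, 0.0734% of the hashtag UMIs, of which 12255 lay on row 1 and 11854 on row 4.

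The 2140 barcodes that passed the filters on genes and mitochondrial UMIs but had no single hashtag row were not used above. They had a median of 7131.5 UMIs. Izumo1r had 69.2 CPM in them (interval 65.7 to 72.9) and Icos 47.1 CPM, both between the odd and the even rows. Ramp1 had 204, Ckb 92.6, Ephx1 71.9 and Vamp5 30.0 CPM.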

How the results depend on the processing

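Of 145 values of 24 results under settings other than leaving out a row, 131 kept their direction and moved by less than the spread over rows (counts of genes by less than 1.5 times), 10 moved further and 4 reversed. The cause of these was not tested. With a stricter hashtag limit, the log2 ratio of even to odd rows was 0.76 for Vamp5, in place of 1.04, and that of the Ikzf2 group to the rest 0.14 for Icos, in place of -0.32, and -0.23 for Vamp5, in place of 0.05. With cells thinned to 2000 UMIs, even over odd rows gave 2.68 for Icos and 0.0070 for Ephx1, the Ikzf2 group over the rest gave -0.24 for Izumo1r and -0.17 for Vamp5, and the Cst3 group over the rest gave 1.60 for Ckb, in place of 2.83. Thinned to 1000 UMIs, the 15 pairs had a median co-detection ratio of 1.37. Thinned and with 1 or more Ccl5 UMIs as the upper class, Izumo1r had 1.10 and Ephx1 0.78. Looser cell filters gave 8 genes lower with Izumo1r and a pseudocount of 1 CPM gave 11, in place of 4, and an Izumo1r UMI counted after thinning gave 1 gene higher, in place of 2.

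Leaving out each row moved 4 of 120 values and reversed 2. Genes higher with Izumo1r numbered 2 to 4 and genes lower 5 to 12, with 4 higher without row 12 and without row 14. The ratio of the Ikzf2 group to the rest for Vamp5 ran from -0.025 (without row 15 or row 17) to 0.13. Depth limits the rows unequally, since 3 UMIs correspond to 1.31 CPM in row 16 and 0.205 CPM in row 13. No paired analysis was possible because no hashtag row could be assigned to a population or replicate.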

Other observations

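The even rows were not alike. For Izumo1r, Icos, Ckb, Ephx1 and Vamp5, rows 16 and 18 both lay above rows 12 and 14. The share of all genes with this order of rows was not computed, so these values have no background. Izumo1r had 201 and 261 CPM in rows 16 and 18 against 109.7 and 135 CPM in rows 12 and 14, Icos 148 and 136 against 91.3 and 95.4, and Ckb 74.9 and 67.4 against 32.0 and 35.7, with intervals that did not overlap between these pairs of rows. For Ephx1 (102 and 126 against 83.7 and 98.1 CPM) and Vamp5 (49.0 and 55.3 against 38.7 and 40.8 CPM) the intervals of row 16 overlapped those of both row 12 and row 14. Ramp1 had 166 and 224 CPM in rows 16 and 18 and 131 and 169 CPM in rows 12 and 14, which does not separate them. Ccl5 ran the other way, with 557 and 579 CPM in rows 16 and 18 and 890 and 818 CPM in rows 12 and 14. These rows were set side by side after their values were seen, none is assigned to a genotype, and the difference was not tested.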
